A study of Mus musculus with 12 samples.

Results

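H3K27ac at protein-coding genes was compared between cortical interneurons (CINs) and the other cells of the neonatal mouse cortex (non-CINs). For each of 21938 protein-coding genes, the bases under H3K27ac peaks were summed over a window from 5 kb upstream of the transcription start site (TSS) to the gene end, in each of 4 peak lists. Of these genes, 14672 had a peak in at least 1 list, 12456 in all 4, and 7266 in none. Genes were ranked by the gap between the populations, which is the lower value of the higher population minus the higher value of the lower one, where both lists of one population lay above both of the other.

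The series holds 12 samples, all from cerebral cortex of Gad67-GFP heterozygote pups at postnatal day 2, kept on a mixed genetic background by crosses to CD-1. H3K27ac was profiled in 2 samples of GFP-positive CINs and 2 samples of GFP-negative non-CINs, H3K27me3 in as many, and 4 inputs without peak lists served as controls for peak calling. Each sample pooled tissue from 2 to 3 litters, which was dissociated with papain and sorted by flow cytometry, and chromatin was digested with MNase to mono- and dinucleosomes before native immunoprecipitation. The reporter follows *Gad1*, which encodes GAD67, so the GFP gate takes all GABAergic cells of the tissue and not a single interneuron class, and the GFP-negative fraction mixes projection neurons, glia, vascular and immune cells. The study treats the replicates of a group as biological. The labels do not say whether they came from separate sorts, so p-values measure only the spread between these samples.

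H3K27ac, acetylation of lysine 27 of histone H3, marks active promoters and enhancers, whereas H3K27me3, trimethylation of the same lysine, is laid down by Polycomb complexes at silenced developmental genes. Long stretches of H3K27ac over a gene and its surroundings are typical of genes that define the identity of a cell. CINs are born in the ganglionic eminences under the control of homeobox genes of the *Dlx* family, migrate tangentially into the cortex and use GABA as transmitter, and at this age they are still immature. In the neonatal cortex astrocytes are being produced from radial glia, beside the glutamatergic projection neurons of all layers.

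Sequences are shown for 4 places that illustrate the gene patterns described below, from GRCm38.p6 (the mm10 assembly), 5′ to 3′ on the gene's strand, with capitals for bases under H3K27ac peaks in both lists of one population and in neither list of the other. The first 2 are the 250 bases before the TSS of *Sp9* (chr2:73271675-73271924, plus strand) and *Gad2* (chr2:22621955-22622204, plus strand), where the capitals are CIN bases. The third is the same stretch of *Slc1a3* (chr15:8710765-8711014, minus strand), a gene with more H3K27ac in non-CINs whose promoter lay under peaks in all 4 lists, so that it holds no capital. The fourth is the centre of the longest non-CIN stretch in an intron of *Lrig1* (chr6:94637659-94637908, minus strand).
Sp9 promoter: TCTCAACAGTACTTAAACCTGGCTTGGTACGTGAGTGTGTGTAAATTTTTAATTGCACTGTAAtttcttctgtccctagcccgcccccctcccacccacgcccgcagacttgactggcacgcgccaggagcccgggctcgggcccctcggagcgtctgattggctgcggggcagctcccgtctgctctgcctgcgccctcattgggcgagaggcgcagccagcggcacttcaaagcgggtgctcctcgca
Gad2 promoter: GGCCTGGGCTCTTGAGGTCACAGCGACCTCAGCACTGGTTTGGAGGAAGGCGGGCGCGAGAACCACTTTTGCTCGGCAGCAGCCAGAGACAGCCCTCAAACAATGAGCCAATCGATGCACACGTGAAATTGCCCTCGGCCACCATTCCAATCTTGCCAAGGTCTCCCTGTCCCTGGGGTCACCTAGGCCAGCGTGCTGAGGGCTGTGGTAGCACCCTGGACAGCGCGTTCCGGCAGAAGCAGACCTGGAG
Slc1a3 promoter: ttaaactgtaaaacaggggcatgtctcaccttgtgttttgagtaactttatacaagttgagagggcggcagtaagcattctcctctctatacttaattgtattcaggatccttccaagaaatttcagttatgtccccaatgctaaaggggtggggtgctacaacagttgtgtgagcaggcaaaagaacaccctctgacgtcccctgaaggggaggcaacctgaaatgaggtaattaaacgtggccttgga
Lrig1 intron: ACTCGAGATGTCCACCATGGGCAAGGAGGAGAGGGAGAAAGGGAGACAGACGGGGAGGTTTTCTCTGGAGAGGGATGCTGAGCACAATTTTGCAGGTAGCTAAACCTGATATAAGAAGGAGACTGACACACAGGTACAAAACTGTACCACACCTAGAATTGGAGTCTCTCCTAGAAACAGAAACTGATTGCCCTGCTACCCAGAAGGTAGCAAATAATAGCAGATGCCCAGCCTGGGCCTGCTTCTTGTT
The *Gad2* promoter was CIN-only over all 250 bases, while non-CIN replicate 2 had a peak farther upstream, within 1 kb of the TSS. The CIN-only bases of the *Sp9* promoter were its 63 upstream bases, which is the edge of a peak.

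The CIN lists held 62505 and 46310 H3K27ac peaks over 56.3 and 40.8 Mb, and the non-CIN lists 59667 and 46040 over 50.4 and 44.0 Mb, so replicate 1 covered more than replicate 2 in both populations. The lists give no read counts, so the depth behind a peak is unknown, and a gene listed at 0 is one at which no peak was called. A shorter covered length can come from fewer cells with the mark or from less of it per cell, and the 2 cannot be told apart in sorted populations. Windows of neighbouring genes can overlap, in which case a peak counts for both, and 7907 of the 14672 genes with a peak shared part of their window with another.

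Both CIN lists covered more of the window than both non-CIN lists at 2649 genes, 18.1% of those with a peak, and the reverse held at 2643 genes, 18%. The numbers were nearly equal. Of the 15 genes with the largest gap, 7 of those higher in CINs and 0 of those higher in non-CINs had no base under peaks in all 4 lists. With 2 lists against 2, a two-sided exact permutation test of 1 gene cannot go below p = 0.333, so the order of the lists is a description. A limma fit across 12613 genes with a mean of at least 500 bp, on log2(covered bp + 500), called 6 genes higher in CINs at a Benjamini-Hochberg adjusted p under 0.05 (0.0476% of genes fitted) and 0 higher in non-CINs (0%), with 622 and 575 genes at an unadjusted p under 0.05. Scaling the lists to an equal total covered length raised the limma calls to 363 higher in CINs (2.89%) and 138 higher in non-CINs (1.1%), and taking the replicate number as a block raised them to 316 (2.51%) and 97 (0.769%). Leaving out any 1 of the 4 lists left 0 calls in either direction.

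**Figure D1:**
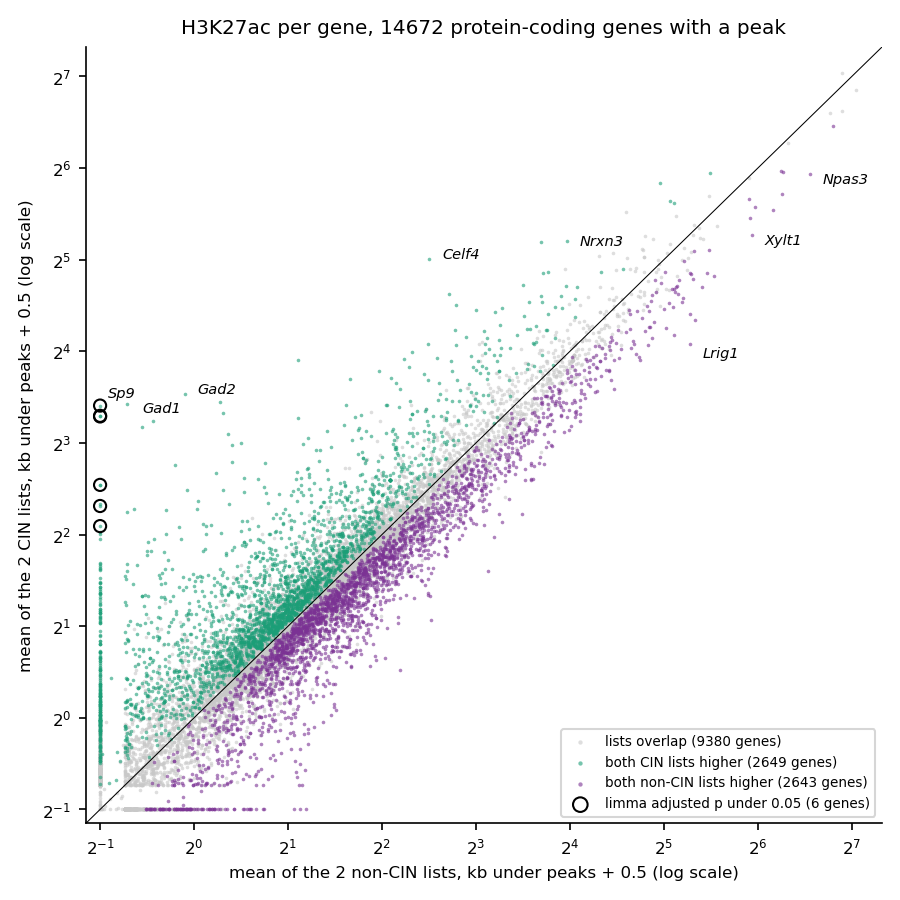
Each point is 1 of 14672 protein-coding genes, with the mean kb under H3K27ac peaks in the 2 non-CIN lists on the x axis and in the 2 CIN lists on the y axis, both with 0.5 kb added and on log scales; green and purple points have non-overlapping lists and circles mark the 6 limma calls. The circled genes stand at the left edge, with 0 kb in non-CINs, while the largest purple domains, such as *Npas3* and *Xylt1*, lie close to the diagonal.

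The 6 called genes were all transcription factors of the ventral telencephalon, *Dlx1*, *Dlx2*, *Dlx5*, *Dlx6*, *Sp8* and *Sp9*, and both non-CIN lists were at 0 for each of them. The *Dlx* genes encode homeobox factors that specify GABAergic neurons and *Sp8* and *Sp9* encode zinc finger factors of interneuron progenitors and their progeny. They lie at 4 places, since *Dlx1* (chr2:71528113-71533981) and *Dlx2* (chr2:71543408-71546754) are neighbours, as are *Dlx5* (chr6:6877805-6882085) and *Dlx6* (chr6:6863334-6868568), while *Sp9* (chr2:73271925-73284706) and *Sp8* (chr12:118846329-118852576) stand alone. The bigene clusters are therefore not independent observations.

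*Sp9* was covered over 11.3 and 8.91 kb in the CIN lists, with a log2 difference of 4.40 ± 0.16 (SE, n = 2 against 2, limma adjusted p = 0.016). *Dlx6* had 9.81 and 8.84 kb in CINs, which is 86.4% of its window at the lower value, and a log2 difference of 4.29 ± 0.12 (limma adjusted p = 0.016). *Dlx1* had 10.2 and 8.32 kb in CINs, with a log2 difference of 4.28 ± 0.15 (limma adjusted p = 0.016). These 3 domains filled at least 50.1% of the gene's window in the shorter list. *Dlx5* had 4.80 and 4.13 kb and *Dlx2* 3.81 and 3.72 kb in CINs, with log2 differences of 3.31 ± 0.15 and 3.09 ± 0.15 (limma adjusted p = 0.034 for both). *Sp8* had 6.06 and 4.59 kb in CINs, with a log2 difference of 3.53 ± 0.17 (limma adjusted p = 0.034). Because the non-CIN lists were at 0, these differences depend on the 500 bp that were added and are not fold changes, and with 100 bp added only 3 genes were called. In their own list the strongest peaks of these genes ranked, by fold enrichment, between the 66th and the 89th percentile, so the domains were long without holding the highest peaks.

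The genes of GABA synthesis and vesicular loading showed the same order. *Gad1* (chr2:70553072-70602014), which encodes GAD67 and drives the sorted reporter, had 11.3 and 9.19 kb in the CIN lists against 0.219 and 0 kb in the non-CIN lists (log2 difference 4.16 ± 0.23, limma adjusted p = 0.0503, just above the threshold). *Gad2* (chr2:22622205-22693874), which encodes GAD65, had 12.4 and 9.71 kb against 0.215 and 0.652 kb (log2 difference 3.66 ± 0.29, limma adjusted p = 0.14). *Slc32a1*, the vesicular GABA transporter, had 6.88 and 3.76 kb against none in either non-CIN list (limma adjusted p = 0.16). At all 3 genes the groups did not overlap, but the fit without scaling or block did not call them, whereas it did with an equal total covered length or with the replicate number as a block. As the gate selected for *Gad1*, its value describes the sort. The longest CIN-only stretch of *Gad2*, 7.09 kb, ran over its TSS. At *Gad1* no list had a peak in the promoter (1 kb upstream to 100 bp downstream of the annotated TSS). Its longest CIN-only stretch overlapped an exon and was centred 8.84 kb downstream of that TSS. Only the outermost annotated start of each gene was used, so a promoter at another start of *Gad1* was not counted as one.

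The other genes with the 15 largest gaps in CINs were long genes (102.7 to 1612 kb) in which the mark was present in both populations and more extended in CINs, or nearly absent from non-CINs. *Celf4*, a neuronal RNA-binding protein, had the largest gap in CINs, 14.3 kb, with 42.4 and 20.9 kb in CINs against 6.61 and 3.74 kb in non-CINs. *Nav3*, a microtubule-associated protein of growing neurites, had 25.9 and 18.5 kb against 6.38 and 6.48 kb. *Nrxn3*, a presynaptic adhesion molecule, had 46.7 and 26 kb against 14.9 and 15.4 kb. In each of these the 2 CIN lists differed more from each other than the 2 non-CIN lists did, with replicate 1 higher. *Msra*, a methionine sulfoxide reductase, had 48.8 and 23.1 kb against 12.6 and 12.3 kb. *Myt1l*, a zinc finger factor that represses non-neuronal genes, had 35.2 and 22.3 kb against 12.8 and 13.5 kb. *Anks1b*, a postsynaptic scaffold protein, had 32.2 and 19.5 kb against 11.1 and 10.5 kb. *Tiam2*, an activator of the GTPase Rac, had 24.4 and 17.6 kb against 8.90 and 8.52 kb, and *Nol4* had 21.0 and 15.7 kb against 6.86 and 5.86 kb. The means of these 8 genes were 2.19-fold to 6.12-fold higher in CINs, none passed limma without scaling or block, and all passed it with equal total covered length. With the replicate number as a block 4 passed (*Celf4*, *Nav3*, *Nol4* and *Tiam2*).

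A pair of these genes was close to empty in non-CINs. *Shtn1*, which encodes shootin1, a protein of axon outgrowth, had 10.04 and 7.06 kb in CINs against 0 and 0.358 kb in non-CINs, and its promoter was under peaks in both CIN lists only. *St18*, a zinc finger factor related to *Myt1l*, had 10.7 and 7.15 kb against 0.474 and 0 kb. The longest CIN-only stretch of *St18* lay in an intron 314 kb from the annotated TSS.

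**Figure D2:**
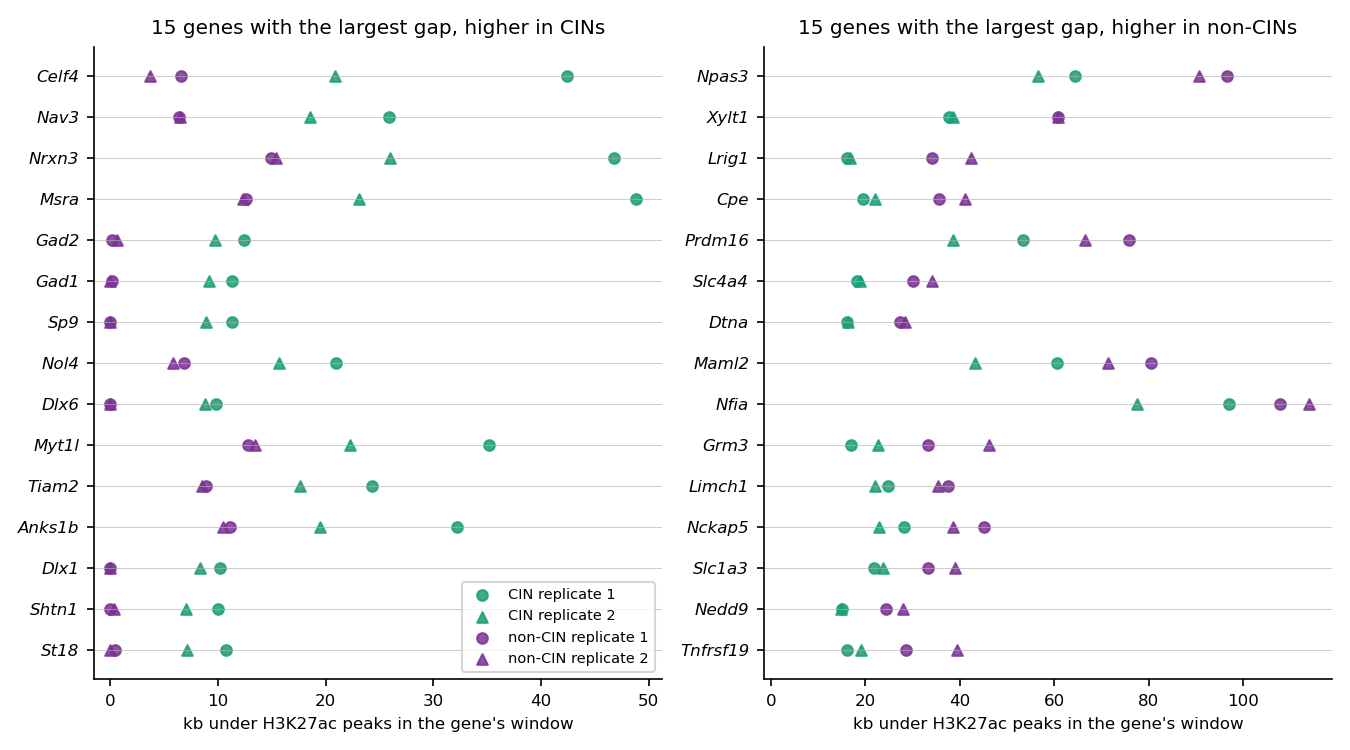
Kilobases under H3K27ac peaks in each of the 4 lists are plotted for the 15 genes with the largest gap in CINs (left) and in non-CINs (right), in rank order from the top, with circles for replicate 1 and triangles for replicate 2. At the CIN genes *Gad2*, *Gad1*, *Sp9*, *Dlx6*, *Dlx1*, *Shtn1* and *St18* the purple points lie at or near 0, whereas the lowest CIN value at a non-CIN gene is 14.8 kb.

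The 15 genes with the largest gaps in non-CINs had wide H3K27ac domains in every list, and 2 of them, *Nfia* and *Slc1a3*, were on the list of astrocyte and radial glia markers. *Npas3*, a neural transcription factor, had the largest gap in either direction, 26.1 kb, with 96.6 and 90.6 kb in non-CINs against 64.5 and 56.6 kb in CINs. *Xylt1*, which starts glycosaminoglycan chains on proteoglycans, had 60.9 and 60.7 kb against 37.6 and 38.5 kb. *Lrig1*, a brake on growth factor receptor signalling, had 34.2 and 42.5 kb against 16.1 and 16.8 kb. At these 3 genes the lists of a population differed by less than the gap. *Prdm16*, a chromatin regulator of radial glia, had 75.9 and 66.6 kb against 53.4 and 38.6 kb. *Nfia*, a factor that starts gliogenesis, had 108 and 114 kb against 97.0 and 77.6 kb, where the CIN lists lay further apart than the gap of 10.7 kb. *Maml2*, a coactivator of Notch signalling, had 80.4 and 71.4 kb against 60.6 and 43.3 kb.

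Membrane transporters and receptors were among them too. *Slc1a3*, the glial glutamate transporter GLAST, had 33.2 and 38.9 kb in non-CINs against 21.9 and 23.7 kb in CINs. *Slc4a4*, a sodium bicarbonate cotransporter, had 30.04 and 34.1 kb against 18.3 and 18.8 kb. *Grm3*, a metabotropic glutamate receptor, had 33.3 and 46.3 kb against 16.9 and 22.7 kb. Each of the 3 had 1.58-fold to 2.01-fold more covered length in non-CINs. The other 6 of the 15 were *Cpe*, *Dtna*, *Limch1*, *Nckap5*, *Nedd9* and *Tnfrsf19*, with gaps of 9.44 to 13.5 kb. Over all 15 genes the mean in non-CINs was 1.27-fold to 2.33-fold that in CINs, limma adjusted p-values ran from 0.30 to 0.67, and with equal total covered length 11 of the 15 were called. With the replicate number as a block only *Lrig1* was called (limma adjusted p = 0.047).

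Genes whose covered length was entirely in one population were more numerous in CINs. Peaks were present in both CIN lists and neither non-CIN list at 213 genes, 1.45% of those with a peak, and the reverse held at 84 genes, 0.573%. Among the longest in CINs were the 6 called factors, *Slc32a1*, *Myo3a* and *Vax1*. *Vax1*, a ventral homeobox gene, had 4.17 and 2.96 kb in CINs over its promoter and gene body. The window of *Myo3a* (5.41 and 3.65 kb) overlaps that of *Gad2*, and peaks in the shared bases count for both. The non-CIN genes named here were shorter, with 0.673 to 1.345 kb in the lower list, and among them only *Bdkrb1*, a bradykinin receptor, was covered at its promoter in both lists. *Mki67*, the proliferation antigen Ki-67, had 1.25 and 2.33 kb in non-CINs, its longest non-CIN-only stretch being intronic, and none in CINs. The others were *Impa2*, *Endou*, *Psd4*, *Pappa2*, *Spink13*, *Tmem82* and *Opn5*. The order was lost for peaks of −log10 q of at least 4 at *Mki67*, *Bdkrb1*, *Endou*, *Opn5* and *Tmem82*, with the 40000 strongest peaks at *Endou* and *Opn5*, and in the gene alone at *Bdkrb1* and *Tmem82*. Without scaling or block limma called none of the non-CIN genes named here, of which *Bdkrb1*, *Spink13* and *Tmem82* were below its filter. It called *Mki67*, *Impa2*, *Pappa2* and *Endou* with equal total covered length, and *Mki67* and *Impa2* with the block.

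At the promoter (1 kb upstream to 100 bp downstream of the TSS), the 2 directions gave different counts, which are a description because the promoter is part of the ranked window. Among the 100 genes with the largest gap in CINs, 40 had a promoter peak in all 4 lists and 17 in both CIN lists only, against 63.0% and 1.17% of all 14672 genes. Among the 100 with the largest gap in non-CINs, 77 had a promoter peak in all 4 lists and 0 in both non-CIN lists only, against 0.607% of all genes. The longest non-CIN-only stretch lay in an intron at all 15 of the non-CIN genes with the largest gap, and the longest CIN-only stretch did so at 10 of the 15 CIN genes. At *Dlx1*, *Gad1*, *Gad2* and *Sp9* it overlapped an exon, and at *Dlx6* it lay upstream of the TSS.

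The ranking by kilobases favours long genes. The median gene was 220 kb long among the first 100 in CINs and 154 kb among the first 100 in non-CINs, against 26.4 kb over all genes with a peak. Ranked instead by the gap as a share of the window, 18 of the 100 CIN genes and 22 of the 100 non-CIN genes stayed among the first 100, and the median lengths were 6.16 and 10.5 kb. The choice of 100 genes was arbitrary, as *Slc6a6* at rank 100 in CINs had a gap of 2.38 kb and *Atp2b2* at rank 101 one of 2.37 kb, and *Tmem51* and *Plce1* at ranks 100 and 101 in non-CINs had gaps of 3.18 and 3.17 kb.

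The labelled populations were compared with markers of the cell types that the tissue holds, in 14 lists whose members were all found in the annotation and of which some share members. Of the 31 cortical interneuron genes with a peak, 20 were higher in both CIN lists and 1, *Npas3*, in both non-CIN lists, with a median log2 difference of 0.97 against 0.01 over all genes and the background of 18.1% and 18% given above. Beside the *Dlx*, *Sp* and GABA genes, *Adarb2*, a marker of interneurons from the caudal ganglionic eminence, had 9.09 and 5.70 kb in CINs against 1.22 and 0.418 kb in non-CINs. *Erbb4*, the neuregulin receptor of migrating interneurons, had 14.1 and 8.92 kb against 3.52 and 4.65 kb. *Zeb2*, a factor that directs interneurons to the cortex, had 58.7 and 40.4 kb against 35.4 and 30.4 kb. Of the 28 fitted members limma called 6 higher in CINs without scaling or block, 13 with the replicate block, and 14 with equal total covered length, where it also called *Npas3* higher in non-CINs.

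Several defining interneuron genes carried no H3K27ac peak in their window in any list. Peaks outside the window were not counted, and the paper shows a CIN-specific candidate element near *Sst*. The genes without a peak were *Lhx6*, *Lhx8* and *Nkx2-1*, which encode factors of the medial ganglionic eminence, and *Sst*, *Npy*, *Vip*, *Calb2*, *Cck* and *Pvalb*, which encode neuropeptides and calcium-binding proteins of mature subtypes. All of them except *Vip* lay under H3K27me3 peaks in all 4 H3K27me3 lists, with 22.5 to 24.1 kb at *Lhx6* and the full 9.95 kb window at *Nkx2-1*. Over all 7266 genes with no H3K27ac peak, 1247 (17.2%) had H3K27me3 in all 4 lists. The CIN lists thus held peaks in the windows of the *Dlx*, *Sp* and GABA genes of the lineage and none in that of *Lhx6*.

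Among 20 genes of interneuron migration and guidance, most of them receptors, 9 were higher in both CIN lists, beside 18.1% of all genes with a peak. *Nrp1*, a semaphorin receptor, was higher in both non-CIN lists, beside 18% of all genes. Its order was lost under either stricter choice of peaks (−log10 q of at least 4, or the 40000 strongest of each list). With equal total covered length, 6 of the 20 were higher in non-CINs and 10 in CINs, beside 2812 and 2477 of the 14672 genes with a peak. *Plxna4*, a coreceptor for semaphorins, had 22.5 and 11.9 kb in CINs against 8.44 and 7.87 kb in non-CINs. *Robo2*, a Slit receptor, had 11.8 and 7.55 kb against 5.51 and 4.51 kb. *Ackr3*, a scavenger receptor for the chemokine that guides interneurons, had 5.32 and 2.94 kb against 1.54 and 1.51 kb, whereas the lists overlapped at its signalling partner *Cxcr4*. Of 10 genes of GABA handling, *Abat*, the GABA-degrading transaminase, was higher in CINs beside *Gad1*, *Gad2* and *Slc32a1* (7.75 and 6.10 kb against 4.35 and 3.6 kb). *Slc6a11*, the astrocytic GABA transporter GAT3, was higher in non-CINs, with 17.3 and 17.6 kb against 11.7 and 9.83 kb.

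Of 19 genes that all neurons use, 10 were higher in both CIN lists and 0 in both non-CIN lists, beside 18.1% and 18% of all genes. The median log2 difference was 0.54. *Dcx*, a microtubule protein of migrating neurons, had 10.1 and 6.02 kb in CINs against 0.217 and 1.35 kb in non-CINs. *Tubb3*, neuronal beta-tubulin, had 5.33 and 3.42 kb against 0.764 and 0.286 kb, and *Gap43*, a growth cone protein, 8.21 and 6.85 kb against 4.67 and 3.92 kb. The summed covered length of the list was 197 and 121 kb in CINs and 104 and 93 kb in non-CINs, and limma called 0 of 18 higher in CINs without scaling or block, 5 with equal total covered length and 6 with the replicate block. A higher covered length in CINs at a gene of this kind moved with the neuronal markers at large, and the part of neuron content in it was not tested.

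Of 25 projection neuron genes, 6 were higher in both CIN lists and 6 in both non-CIN lists, which is near the 18.1% and 18% of all genes, with a median log2 difference of 0.03. *Rorb*, a layer 4 factor, had 17.0 and 16.5 kb in non-CINs against 11.3 and 8.68 kb in CINs, and *Fezf2*, *Emx1* and *Emx2*, factors of cortical progenitors and projection neurons, had gaps of 0.596, 0.182 and 0.503 kb in the same direction, of which that of *Emx2* was lost with equal total covered length and that of *Fezf2* under both stricter choices of peaks. *Bcl11b*, which is used by both deep-layer and GABAergic neurons, had 20.2 and 8.88 kb in CINs against 2.33 and 0.981 kb in non-CINs. *Slc17a7*, the glutamate transporter VGLUT1, and *Neurod2*, *Neurog1*, *Neurog2* and *Nrgn*, genes of glutamatergic neurons and their progenitors, had no H3K27ac peak in any list and H3K27me3 in all 4. The labelled non-CINs therefore lacked peaks in the windows of several defining genes of the projection neurons that the fraction should hold.

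Markers of astrocytes and radial glia gave the clearest order in non-CINs, with 17 of 25 higher in both non-CIN lists, 0 in both CIN lists and a median log2 difference of -0.32. Over all genes with a peak, 18% were higher in non-CINs and 18.1% in CINs. The 0 in CINs became 4 without CIN replicate 2 and 2 without non-CIN replicate 2. *Aqp4*, the astrocytic water channel, had 6.30 and 6.44 kb in non-CINs against 4.0 and 3.59 kb in CINs. *Aldh1l1*, a folate enzyme used as an astrocyte marker, had 24.2 and 20.7 kb against 16.6 and 12.8 kb. *Tnc*, an extracellular matrix protein of glia, had 14.1 and 18.2 kb against 10.3 and 10.5 kb, an order that was lost with the 40000 strongest peaks. The summed length of the list was 433 and 460 kb in non-CINs and 396 and 330 kb in CINs, with peaks at these genes in the CIN lists too, and limma called none of the 25 without scaling or block, with equal total covered length or with the replicate block. The part of glial content in the non-CIN genes above was not tested.

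Other cell types showed no single direction. Their counts stand beside 18.1% of all genes with a peak higher in CINs and 18% higher in non-CINs. Of 18 oligodendrocyte lineage genes, 7 were higher in both CIN lists, among them *Enpp2*, *Bcas1* and *Pdgfra*, the receptor that marks the precursors (1.90 and 3.67 kb in CINs against 0.981 and 1.28 kb in non-CINs), and 3 in both non-CIN lists, *Cnp*, *Olig2* and *Nkx2-2*, the last 2 not with equal total covered length. The number higher in CINs was 4 with −log10 q of at least 4, and 11 without non-CIN replicate 2. With the replicate block limma called *Bcas1* and *Zfp488* higher in CINs, but not without it or with equal total covered length. The order of *Zfp488* was lost under both stricter choices of peaks. The summed length of the oligodendrocyte list was 66.3 and 62.5 kb in CINs and 53.7 and 55.4 kb in non-CINs, *Mag* and *Myrf* were at 0 in all lists, and the part of these cells in the CIN gate was not tested. Of 12 microglial genes with a peak, 3 were higher in CINs and 2 in non-CINs. Without CIN replicate 1 or non-CIN replicate 1 the number in CINs was 5, and without non-CIN replicate 2 the number in non-CINs was 6. Those in CINs with all 4 lists were *Ly86*, *Runx1* (2.25 and 1.67 kb against 0.614 and 0 kb) and *Ptprc* (2.80 and 2.34 kb against 1.48 and 0.874 kb), and limma called the last 2 with equal total covered length and with the replicate block, but not without. Those in non-CINs were *P2ry12* and *Cx3cr1* (10.8 and 9.21 kb against 7.00 and 5.6 kb), the window of the latter overlapping those of 5 other genes. The order reversed at *Ly86* with −log10 q of at least 4 and at *P2ry12* under both stricter choices of peaks, and it was lost at both genes with equal total covered length. The list had sums of 21.0 and 22.2 kb in CINs and 27 and 19.6 kb in non-CINs. The microglial genes *Aif1*, *C1qa*, *C1qc*, *Fcrls*, *Itgam*, *Siglech*, *Tmem119* and *Trem2* were at 0 in all lists. Of 13 endothelial and pericyte genes, 2 were higher in CINs and 5 in non-CINs, including *Slco1c1* and *Pdgfrb*, with sums of 36.2 and 28.6 kb against 49.5 and 41.8 kb, and 7 genes, among them *Cldn5*, *Kdr* and *Tie1*, were at 0. Of the 5, limma called *Lef1* and *Slc2a1* with equal total covered length and with the replicate block, but not without. The order of *Slc2a1* was lost with −log10 q of at least 4. Meningeal fibroblast genes covered at most 1.78 kb in any list. Of 12 proliferation genes, 4 were higher in non-CINs (*Ccnd1*, *Mki67*, *Mcm2* and *Mcm6*, the last not with equal total covered length) and 1 in CINs.

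Of 17 genes of striatal and olfactory bulb GABA neurons, which the GFP gate would also take, 5 were higher in both CIN lists and 2 in both non-CIN lists. Beside the 18.1% and 18% of all genes, these counts do not set the list apart. *Foxp2* had 19.9 and 13.1 kb in CINs against 8.84 and 7.29 kb in non-CINs, and *Th*, the dopamine-synthesis enzyme of olfactory bulb neurons, 3.48 and 0.890 kb against none. *Drd2*, a dopamine receptor of striatal neurons, had 1.04 and 0.533 kb against none. The 2 higher in non-CINs were *Foxp1* and *Meis2*, the latter not with equal total covered length. The striatal genes *Drd1*, *Ppp1r1b* and *Isl1* were at 0 in all lists. Of 5 Cajal-Retzius genes with a peak, *Reln* and *Cacna2d2* were higher in CINs, the former not with −log10 q of at least 4, and *Lhx1*, *Lhx5*, *Ebf3*, *Barhl2* and *Calb2* were at 0. Of 22 glutamate receptor genes, 6 were higher in CINs and 5 in non-CINs, which is also near the share of all genes. The 6 became 12 by the order within both replicate numbers and 12 without non-CIN replicate 1. The 5 became 9 without CIN replicate 1. The counts over all genes rose under these rules too. With all 4 lists *Gria4*, an AMPA receptor subunit (2.43 and 2.30 kb against 0.493 and 0.435 kb), *Gria3* and *Grik3* were among those higher in CINs, and *Grm5* (14.1 and 13.5 kb in non-CINs against 8.02 and 8.5 kb in CINs), *Grid1* and *Grm3* among those higher in non-CINs.

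**Figure D3:**
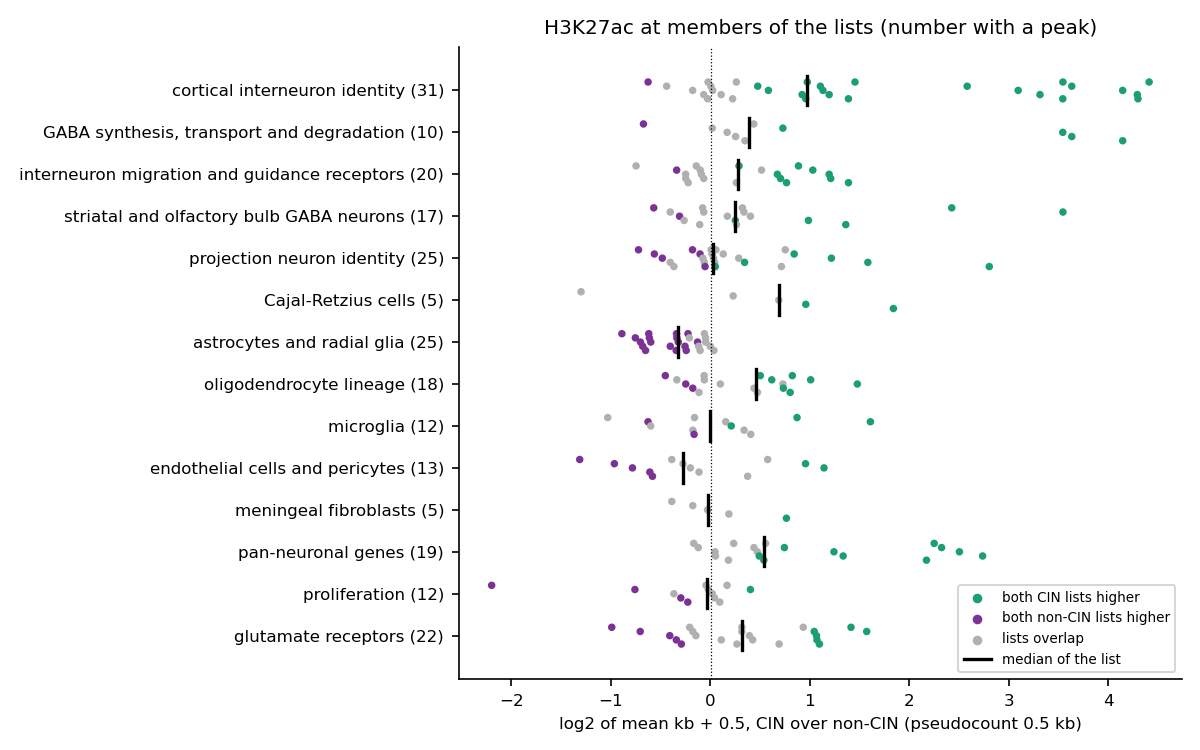
Each point is a member of a marker or pathway list with a peak in at least 1 list (number in brackets), at its log2 difference of mean covered kb between CINs and non-CINs with 0.5 kb added; black bars are medians and the dotted line is the median of all genes, 0.01. Interneuron and pan-neuronal members extend to the right, most astrocyte and radial glia members lie to the left, and projection neuron members lie on both sides.

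H3K27me3 peaks, which the ranking did not use, were summed over the same windows. Of the 100 genes with the largest H3K27ac gap in CINs, 90 had an H3K27me3 peak, and 42 of these were covered more in both non-CIN lists and 0 in both CIN lists. Of all 14672 genes with an H3K27ac peak, 6797 (46.3%) had an H3K27me3 peak, and of these 12.7% were higher in non-CINs and 7.27% in CINs. Over all 8941 genes with an H3K27me3 peak, with or without H3K27ac, the shares were 11.1% and 7.34%. The ranked sets hold longer genes, as given above, and so wider windows in which a peak can fall. Of the 100 genes with the largest gap in non-CINs, 64 had an H3K27me3 peak, 14 of which were covered more in both CIN lists and 1 in both non-CIN lists. *Celf4* had 2.07 and 8.29 kb of H3K27me3 in CINs against 8.22 and 14.2 kb in non-CINs, which overlap, and *Shtn1* had 10.4 and 17.6 kb against 18.2 and 27.2 kb, which do not. *Lrig1* had 1.21 and 6.70 kb in CINs against 0 and 0.397 kb in non-CINs. The H3K27me3 lists covered 34.5 and 44.2 Mb in CINs and 39.4 and 49.8 Mb in non-CINs.

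The factors with CIN-only H3K27ac were covered by H3K27me3 in both populations. The whole *Sp8* window, 11.2 kb, lay under H3K27me3 peaks in all 4 lists, as did 97.6% or more of the *Dlx1* window and 97.9% or more of the *Dlx6* window. In CIN replicates 1 and 2, 100% and 100% of the H3K27ac bases at *Sp8* were also under an H3K27me3 peak of the list with the same number. The shares were 97.4% and 97.6% at *Dlx1*, 99.7% and 100% at *Sp9*, 90.7% and 89.1% at *Gad1*, and 75.4% and 94.7% at *Gad2*. Over all genes with an H3K27ac peak the CIN shares were 1.83% and 2.39%, and the non-CIN shares 1.34% and 1.22%. At the long genes among the 15 with the largest gap in CINs they spread widely, from 0.313% and 0% at *Anks1b*, 0% and 0.955% at *Msra* and 2.26% and 6.53% at *Celf4* to 12.9% and 26.8% at *Myt1l* and 16.3% and 28.2% at *Shtn1*. Over the first 100 genes together the shares were 7.41% and 12.8% in CINs. At *Sp8*, *Dlx1* and *Dlx6* the share was fixed by H3K27me3 peaks over nearly the whole window. In CIN replicates 1 and 2 H3K27me3 peaks covered 23.3% and 26.4% of the *Gad1* window and 12.6% and 16.0% of that of *Gad2*. They covered 1.47% and 1.98% of the windows of all genes with an H3K27ac peak. A lysine carries 1 of the 2 marks at a time, and the lists cannot tell whether the marks sat on different cells, alleles or histones.

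**Figure D4:**
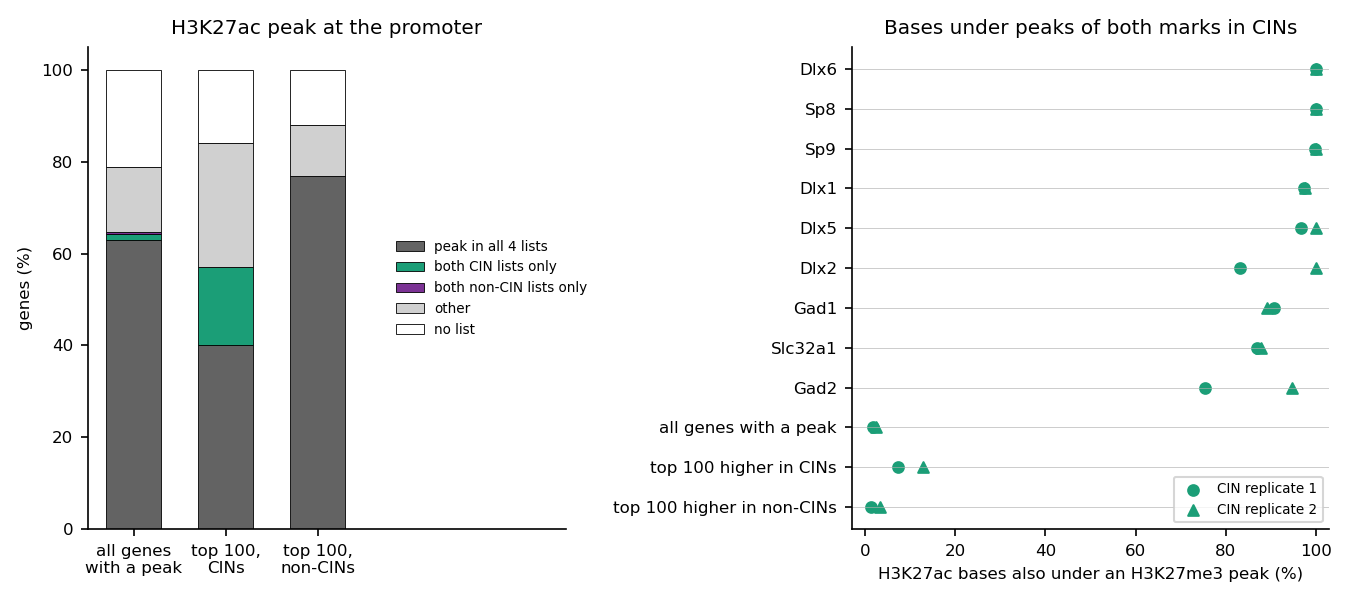
The left panel gives the percent of genes by the lists with an H3K27ac peak at the promoter, for all 14672 genes and for the 100 with the largest gap in each direction; the right panel gives, for each CIN replicate, the percent of H3K27ac bases in the windows that were also under an H3K27me3 peak. The green segment, both CIN lists only, is 17% of the CIN genes and 1.17% of all genes, and the *Dlx*, *Sp* and GABA genes lie at 75.4% or more, against 1.83% and 2.39% over all genes.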

How the data were processed

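Histone marks were profiled by native ChIP-seq in sorted CINs and non-CINs, with groups taken from the sample labels. Reads had been mapped by the authors to the mm10 assembly (BWA mem, 0.7.15) and filtered at a mapping quality of 30 (SAMtools). Broad peaks were then called by the authors replicate by replicate, with MACS2 and the input of the same sample, without model building or local lambda, at 200 bp extension and q and broad cutoffs of 0.01. The submitters' processing notes name MACS2 2.2.7 and deepTools 3.4.3. The deposited lists give for each peak a position, an integer score, a fold enrichment (a ratio to input), and a −log10 p-value and −log10 q-value as the authors' caller wrote them. Here the positions, the fold (for peak percentiles) and the −log10 q (for 1 alternative) were used, and the score and −log10 p were not.

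Bases under peaks were summed per gene window for protein-coding genes of GENCODE vM21, without merging peaks. limma (3.58.1, R 4.3.3) was fitted with trend on log2(bp + 500) for genes with a mean of at least 500 bp, with 2 lists a group, no covariate and Benjamini-Hochberg adjustment over all genes fitted. The scripts (Python 3.11.15, pandas 2.3.3, NumPy 2.4.6) were tested on simulated data with known answers. The named genes are the 15 with the largest gap in each direction, the 10 with the longest covered length among genes with peaks in one population only, up to 4 members of each list with the largest gap in each direction, members of a list at 0 in every list, and the 3 genes on either side of rank 100; some are not reported here. *Adarb2*, *Aqp4*, *Cxcr4*, *Pdgfra* and *Zeb2* fall outside this rule and were chosen after their values were seen. The genes, the lists and the rules were chosen with earlier results of these data known. Peak lists hold no counts, so no counting interval could be given. Alternatives covered stricter peaks, merged peaks, window ends, scaling, pseudocounts, filters, the replicate number as a block and leaving out each list.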

Additional observations from a re-analysis of the deposited data

How the results depend on the processing

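The 30 genes with the 15 largest gaps in each direction kept separate lists under stricter peaks (−log10 q of at least 4, or the 40000 strongest of each list), merged peaks, equal total covered length, the gene without its upstream 5 kb and 20 kb upstream. Counting only windows that overlap no other gave 1254 genes higher in CINs and 1299 in non-CINs. limma called 12 genes higher in CINs with −log10 q of at least 4, 14 with the 40000 strongest peaks, 363 with equal total covered length (138 in non-CINs), and 3 with 100 bp added. It called 5 with 2000 bp added, without the filter or without the trend. H3K27me3 was higher in CINs at 7 of the first 100 non-CIN genes with −log10 q of at least 4, a setting for which the share over all genes was not computed. Of 116 named genes, the lists came to overlap at 12 with −log10 q of at least 4, 6 with the 40000 strongest peaks, 8 with equal total covered length and 4 with the gene alone. The microglial genes *Ly86* and *P2ry12* reversed: counted in their first direction, the gap of *Ly86* became -0.091 kb with −log10 q of at least 4, and that of *P2ry12* -1.121 kb there and -0.452 kb with the 40000 strongest peaks. The cause of these changes was not tested.

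The labels number the replicates without saying what a number marks, and with 2 numbers pairing could not be settled: the differences of replicate 1 minus replicate 2 in CINs and in non-CINs correlated at 0.438 over 12613 genes, which are not independent. Within each number as a block, limma called 316 genes higher in CINs and 97 in non-CINs, including all 6 of the fit without it. By the order within both numbers 4372 genes were higher in CINs and 4281 in non-CINs, and H3K27me3 was higher in CINs at 24 of the first 100 non-CIN genes and in non-CINs at 63 of the first 100 CIN genes.

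Leaving out 1 list at a time, an arm of 1 list is assumed to vary like the other. limma then called 0 to 0 genes in either direction, with 283 to 1016 genes higher in CINs and 167 to 889 in non-CINs at an unadjusted p under 0.05. With fewer lists the order holds more easily: 3299 (without CIN replicate 1) to 7239 genes (without CIN replicate 2) were higher in CINs (5348 without non-CIN replicate 1) and 3272 (without CIN replicate 2) to 6449 (without CIN replicate 1) in non-CINs (5742 without non-CIN replicate 2). Pan-neuronal genes higher in CINs numbered 10 to 17, the highest without CIN replicate 2. Without that list 13 projection neuron, 12 striatal and olfactory bulb and 15 glutamate receptor genes were higher in CINs, and without CIN replicate 1 13 projection neuron genes and 8 migration and guidance genes were higher in non-CINs (5 migration and guidance genes without non-CIN replicate 2). H3K27me3 was higher in non-CINs at 43 to 73 of the first 100 CIN genes (69 without CIN replicate 2, 73 without non-CIN replicate 1) and in CINs at 17 to 39 of the first 100 non-CIN genes (39 without CIN replicate 1, 27 without non-CIN replicate 2). These counts too can only rise when a list is left out, and the H3K27me3 shares over all genes were not computed for them.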
